A study of Mus musculus with 2 samples.

Results

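The serine/arginine-rich (SR) splicing factors and their Tra2 relatives were described here through 10 genes, Srsf1, Srsf2, Srsf3, Srsf4, Srsf5, Srsf6, Srsf7, Srsf11, Tra2a and Tra2b. They were chosen by gene symbol among the 55536 gene IDs of the GENCODE M21 mouse annotation, and all 10 were found. For each gene the share of its transcripts in each annotated type (protein coding, nonsense-mediated decay, retained intron) was summed in each library. The tissue was neural tube dissected from healthy mouse embryos of strain B6NCrl, wild type as far as the labels say, at 12.5 days of development. The study has 1 group of 2 libraries and no treated, mutant or control arm. Replicate 2 pooled 88 embryos and replicate 1 pooled 120 embryos, both sexes together in each, so a value is an average over many embryos. Each library was primed with oligo-dT from 10 ng of total RNA with a very-low-input kit, cut by tagmentation and given ERCC spike-in RNAs. Because the sample is a whole tissue, fewer cells of a type and less RNA per cell cannot be told apart.

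SR proteins bind exonic enhancer sequences through RNA recognition motifs and recruit the spliceosome through a domain rich in arginine and serine; phosphorylation of that domain controls their entry into the nucleus and their activity. Many SR genes carry a poison exon, a conserved alternative exon with an in-frame stop, and some instead splice an intron downstream of their normal stop. Either event leaves an exon junction beyond the stop codon, which marks the mRNA for nonsense-mediated decay in the cytoplasm, and the SR protein often promotes its own unproductive splicing, so that its level is held in check. Transcripts that keep an intron are often held in the nucleus and make no full-length protein. Steady-state RNA counts only what has escaped decay, so a share given here is an abundance and not a splicing rate.

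The estimated counts summed to 35461403 in replicate 2 and 33529531 in replicate 1, of which 97.1% and 97.0% were on genes. All 6 neural markers chosen for the tissue were at 10 TPM (a transcript abundance corrected for length and depth) or more in both libraries, and 0 of 3 forebrain markers reached 1 TPM. Markers of muscle, blood and mesenchyme were all at 1 TPM or more in both libraries, and so were 2 of 3 macrophage markers. The 3 blood markers summed to 6407 TPM in replicate 2 and 6475 TPM in replicate 1. Hbb-y alone, at 5309 and 5425 TPM, exceeded each of the 10 SR and Tra2 genes. The 3 mesenchyme markers summed to 572 TPM in replicate 2 and 540 TPM in replicate 1, so the values below come from a mixed tissue. The 3 muscle markers summed to 120 TPM in replicate 2 and 173 TPM in replicate 1, and their part in any difference between the libraries below was not tested. The 10 SR and Tra2 genes held 152317 counts in replicate 2 and 144021 in replicate 1, which is 0.442% and 0.443% of the counts on genes, so counting error on a whole gene is small.

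All 10 genes were expressed at more than 100 TPM in both libraries. Srsf2, whose protein SRSF2 (SC35) binds exonic enhancers, was the highest at 623.88 TPM in replicate 2 and 638.71 TPM in replicate 1 (631 ± 10.5, SD, n = 2 for this and all later means). Srsf3, which encodes the smallest SR protein and links splicing to mRNA export, stood at 506.59 TPM in replicate 2 and 531.16 TPM in replicate 1 (519 ± 17.4). Srsf7, the closest relative of Srsf3, had 485.16 TPM in replicate 2 and 469.62 TPM in replicate 1 (477 ± 11.0). These 3 genes led in both libraries, in the same order.

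Srsf5 followed with 455.89 TPM in replicate 2 and 408.98 TPM in replicate 1 (432 ± 33.2). Srsf1, the founding member of the family, had 384.83 TPM in replicate 2 and 348.95 TPM in replicate 1 (367 ± 25.4). Tra2b, the mammalian relative of the fly sex-determination factor transformer-2, had 304.21 TPM in replicate 2 and 314.77 TPM in replicate 1 (309 ± 7.47). Its paralog Tra2a was much lower. Srsf11, an SR-related gene, averaged 268 ± 7.91 TPM, Srsf6 averaged 182 ± 11.1, Tra2a 125 ± 6.99 and Srsf4 116 ± 3.82 TPM. Of the 9 pairs of neighbours in this order only Tra2a and Srsf4 differed by less than the sum of their SDs (8.79 TPM against 10.8).

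Counting only transcripts annotated as protein coding changed the order. Srsf2 still led with 494 ± 6.02 TPM of coding RNA, before Srsf3 at 353 ± 15.4 and Srsf7 at 339 ± 0.537, and this last pair lay within the sum of their SDs. Srsf5, above Srsf1 as a gene, had less coding RNA than Srsf1, at 231 ± 24.1 TPM for Srsf5 and 262 ± 18.4 TPM for Srsf1, again within their spread. The leading coding model of Srsf1, Srsf1-201, had 154.35 TPM in replicate 2 and 140.25 TPM in replicate 1. Its annotated coding sequence is 603 bases long, against 744 in Srsf1-205 and 759 in Srsf1-202, so these models do not encode the same protein. Srsf11 dropped to 137 ± 6.68 TPM of coding RNA. Tra2a, at 94.5 ± 5.22 TPM, came below Srsf4 at 105 ± 3.62 TPM.

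**Figure D1:**
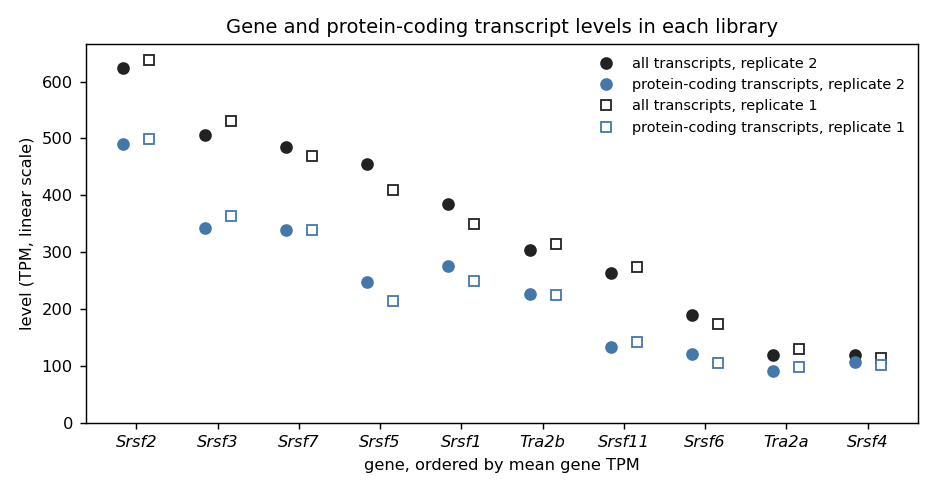
Level of each gene (black) and of its protein-coding transcripts (blue) in TPM on a linear axis, with replicate 2 as filled circles on the left and replicate 1 as open squares on the right. The gap between black and blue symbols is widest for Srsf5 (432 against 231 TPM on average) and small for Srsf4 (116 against 105 TPM).

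The 2 pools gave close values for these genes. On estimated counts scaled by TMM, the log2 ratio of replicate 2 over replicate 1 lay between -0.16 (Tra2a) and 0.12 (Srsf6), with 6 genes higher and 4 lower in replicate 2 and a median of 0.016, against -0.00093 over all 20125 genes tested. None of the 10 passed a log2 ratio of 0.32 in either direction, where 23.3% of all genes tested did and 3.56% of the 9835 genes with a mean of at least 10 TPM. With 1 library on each side this is a description, with no test. At the lower bar of 1.1-fold 1 of the 10, Tra2a, passed, against 47.8% of all genes tested and 23.6% of those at 10 TPM.

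Transcript types divided the family. Together the 10 genes have 84 transcript models in M21, of which 27 are protein coding, 18 nonsense-mediated decay, 31 retained intron and 8 processed transcripts of no stated coding potential. Of their summed TPM, coding transcripts held 68.7% in replicate 2 and 68.6% in replicate 1, nonsense-mediated decay transcripts 9.99% and 10.7%, and retained-intron transcripts 19.1% and 18.5%. At least 1 TPM in both libraries was reached by 21 coding models, 13 decay models and 23 retained-intron models. Coding share ran from 51.2 ± 0.983% in Srsf11 and 53.4 ± 1.46% in Srsf5 to 90.3 ± 0.148% in Srsf4.

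Decay transcripts made up the largest share in Srsf6, with 33.77% of the gene's TPM in replicate 2 and 37.87% in replicate 1 (35.8 ± 2.90). A group of 4 genes followed at intermediate shares. In Tra2b the share was 15.05% in replicate 2 and 16.03% in replicate 1, in Srsf2 14.11% and 14.5%, in Srsf3 13.75% and 14.33%, and in Srsf1 10.17% and 10.55%. Below these came Srsf4 (7.66 ± 0.707%), Srsf11 (5.15 ± 1.62%), Tra2a (3.70 ± 0.297%) and Srsf7 (2.66 ± 0.445%). In Srsf5 the single decay model had 0 counts in replicate 2 and 3.6 counts in replicate 1, at a level of 0 and 0.38 TPM, so a level of 3 counts in replicate 2 would not have stood out from 0.

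Retained-intron transcripts marked other members. Srsf11 held 45.52% of its TPM in them in replicate 2 and 41.83% in replicate 1, and Srsf5 held 38.75% and 40.41%. Srsf7 had 27.16% in replicate 2 and 25.67% in replicate 1. Srsf1 and Srsf3 had 10% or more of their TPM in both types, while the genes first in either type had less than 10% in the other. Srsf6, first by decay share, had 2.67% of its TPM in retained-intron transcripts in replicate 2 and 2.03% in replicate 1, and Tra2b had 3.33% and 2.97%. Srsf11 and Srsf5, first by retained introns, had 5.15 ± 1.62% and 0.045 ± 0.064% in decay transcripts. For Srsf11 this was near the middle of expressed genes (percentile 55.9), and it was 11.3% under the older annotation described below. The type is the annotated one. In Srsf11, Srsf1 and Srsf4 no retained-intron model keeps a whole intron of the leading coding transcript. Tra2a-203, which held most of the retained-intron share of Tra2a, keeps none either.

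**Figure D2:**
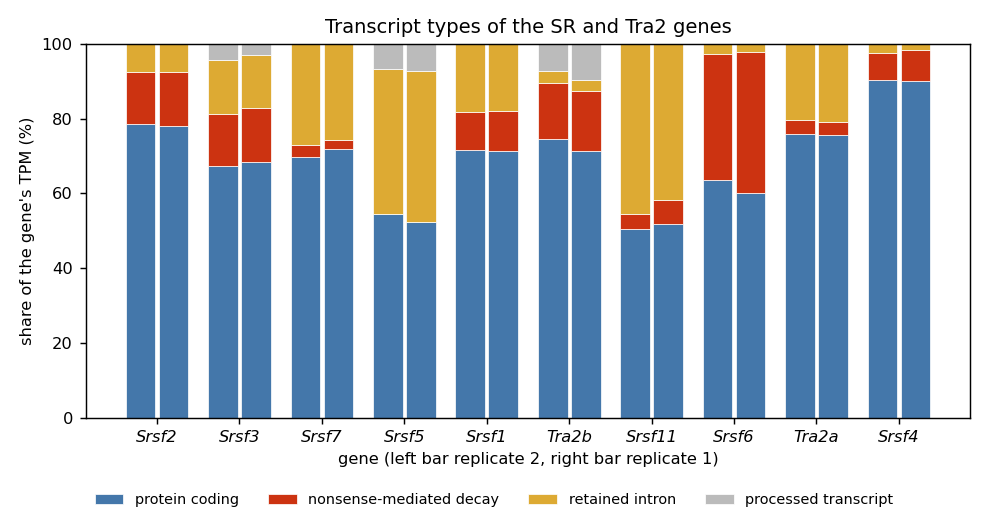
Share of each gene's TPM (%, 0 to 100) in protein-coding, nonsense-mediated decay, retained-intron and processed transcripts, with replicate 2 as the left bar and replicate 1 as the right bar of each pair. The red decay segment is tallest in Srsf6 (33.77% and 37.87%) and the yellow retained-intron segment in Srsf11 (45.52% and 41.83%).

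These shares were set beside those of other expressed genes. Of the 10 genes, 5 had at least 10% of their TPM in decay transcripts, where 30.1% of the 2874 protein-coding genes at 10 TPM or more with an annotated decay model did. The members' median was 9.01%, against 3.82% over those genes (quartiles 0.65% and 13.6%), and 7 of 10 lay above that median. For retained introns 6 of 10 genes reached 10%, against 48% of 5903 genes, and the medians were 16.2% for the members and 9.33% for all. Srsf6 stood at percentile 91.3 of decay share, Srsf11 at percentile 92.7 and Srsf5 at percentile 90.7 of retained-intron share. Each of these 3 therefore had a high share of 1 kind, while Srsf7 (percentile 44.0) and Tra2a (49.2) lay below the middle of all genes by decay share.

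**Figure D3:**
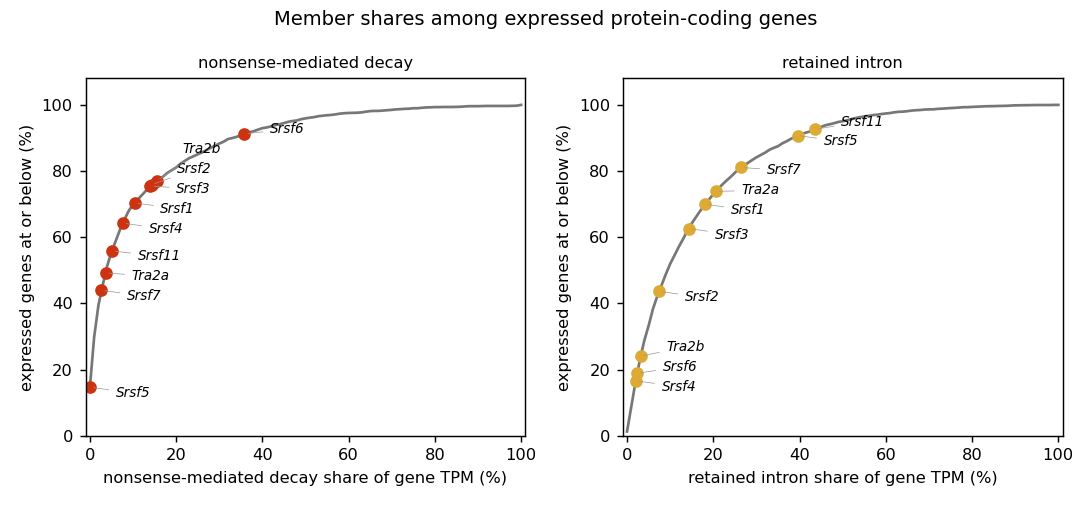
Cumulative share of expressed protein-coding genes (%, vertical axis) at or below a given decay share (left) or retained-intron share (right) of gene TPM, with the 10 members as coloured points. Srsf6 sits at percentile 91.3 in the left panel, and Srsf11 and Srsf5 at 92.7 and 90.7 in the right panel.

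Between the pools the decay share was lower in replicate 2 for 8 of the 10 genes, and the median change was -0.485 points. Of all genes with a decay model 43% were lower, but 14.4% had a share of 0 in both libraries and could not be. Srsf5, 1 of the 8, had only 0 counts in replicate 2 and 3.6 counts in replicate 1 on its decay model. The largest change was 4.1 points, in Srsf6, and a change of 4 points or more was seen in 18.8% of all such genes. The retained-intron share had a median change of 0.325 points. These are differences between 2 libraries and have no replicate check.

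Every one of the 18 decay models places its stop codon at least 50 bases upstream of its last exon junction. As this is the spacing by which such transcripts are recognised, it describes their annotation and is no test. It was not measured in coding models. How the stop arises differs between members. In 8 of the 10 genes (all but Srsf1 and Srsf5) decay models carry 1 or more internal exons that lie inside an intron of the leading coding transcript, 13 exons in all. In 7 genes such an exon holds the stop itself (9 exons, of which 2 are forms of the same Tra2b exon). The lengths of 6 of the 13 are not multiples of 3.

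Sequences of the stop-holding exons are shown from their first base through the stop codon, because this stretch ends in the annotated stop of each decay model. They are read from the GENCODE M21 transcript sequences on mm10, 5′ to 3′ on the transcript's strand, in lower case with the stop codon in capitals. Reading starts in the frame set by the upstream exon. The printed stretches lie at chr2:162932815-162932966 (plus strand, Srsf6), chr16:22259181-22259261 (minus, Tra2b), chr6:49252965-49253108 (minus, Tra2a), chr17:29039454-29039487 (plus, Srsf3), chr17:80205054-80205081 (minus, Srsf7), chr4:131884276-131884390 (plus, Srsf4) and, for the 2 exons of Srsf11 on the minus strand, chr3:158024209-158024231 and chr3:158023310-158023359.
Srsf6-201: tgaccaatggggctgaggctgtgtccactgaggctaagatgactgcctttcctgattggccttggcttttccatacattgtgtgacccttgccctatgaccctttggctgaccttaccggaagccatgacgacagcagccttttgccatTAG
Tra2b-206: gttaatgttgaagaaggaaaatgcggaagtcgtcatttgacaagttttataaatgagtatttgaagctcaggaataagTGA
Tra2a-202: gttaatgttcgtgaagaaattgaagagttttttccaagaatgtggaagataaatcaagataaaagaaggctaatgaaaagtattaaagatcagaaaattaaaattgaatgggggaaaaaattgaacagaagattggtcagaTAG
Srsf3-201: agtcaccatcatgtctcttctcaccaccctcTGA
Srsf7-203: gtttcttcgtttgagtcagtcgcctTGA
Srsf4-203: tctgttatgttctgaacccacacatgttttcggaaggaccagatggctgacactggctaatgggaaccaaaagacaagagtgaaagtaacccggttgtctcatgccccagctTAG
Srsf11-206: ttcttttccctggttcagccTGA
Srsf11-212: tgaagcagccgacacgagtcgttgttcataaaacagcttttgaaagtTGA
The stop ended 34 bases from the exon start in Srsf3, 28 in Srsf7, 23 in Srsf11-206 and 50 in Srsf11-212, and 81 to 152 bases from it in Srsf6, Srsf4, Tra2a and Tra2b. TGA ended the reading frame in 5 of these 8 sequences and TAG in the other 3.

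**Figure D4:**
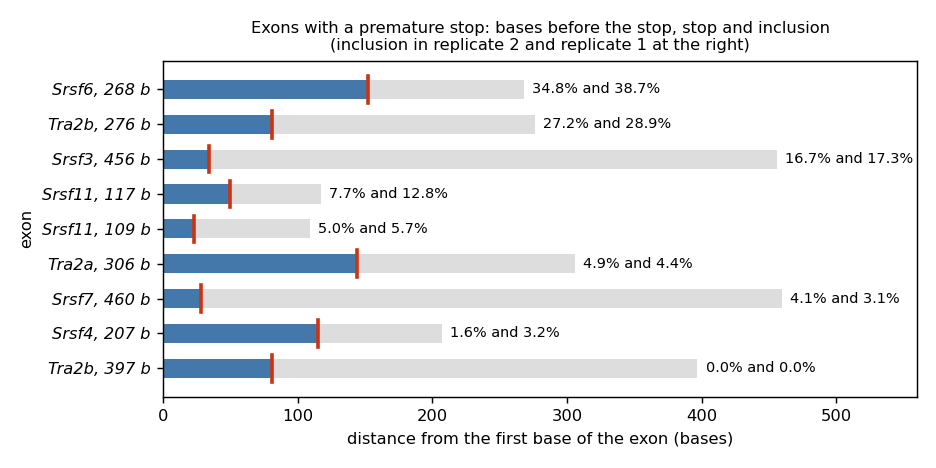
The 9 exons with a premature stop, drawn to scale from their first base (bases, horizontal axis): blue up to the stop codon (red line), grey beyond it, with exon inclusion in replicate 2 and then replicate 1 at the right. Exons are ordered by mean inclusion, from Srsf6 at 34.8% and 38.7% at the top to the 397-base form in Tra2b at 0% in both.

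Inclusion of each exon was computed as the TPM of transcripts holding the exact exon, over that plus the TPM of transcripts that skip it. Srsf6, whose protein SRSF6 (SRp55) regulates alternative exons, had the highest inclusion. Its 268-base exon lies in intron 2 of the leading coding transcript Srsf6-203 and was included at 34.8% in replicate 2 and 38.7% in replicate 1. The decay transcript Srsf6-201 had 64.11 TPM in replicate 2 and 65.92 TPM in replicate 1, and Srsf6-203 had 120.18 TPM and 104.36 TPM. The decay transcript differed little between the pools while the coding one was higher in replicate 2, with groups of 1 library and no test. The intervals deposited with these estimates, whose level is not stated, did not overlap between the 2 transcripts in either library. They ran from 56.3 to 67.0 TPM for Srsf6-201 and from 113.3 to 119.7 TPM for Srsf6-203 in replicate 2. The TPM of Srsf6-203 in that library, 120.18, lay slightly above its own interval.

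Tra2b and Tra2a, paralogs that bind GAA-rich enhancers, each carry a stop-holding exon in intron 1 and differ in how much of it appears. The 276-base exon of Tra2b was included at 27.2% in replicate 2 and 28.9% in replicate 1. The 306-base exon of Tra2a was included at 4.86% in replicate 2 and 4.36% in replicate 1. Inclusion was thus higher in Tra2b in both libraries, with no overlap. The decay transcript Tra2b-206 had 45.78 TPM in replicate 2 and 50.47 TPM in replicate 1, and Tra2a-202 had 4.68 TPM and 4.52 TPM. The leading coding transcripts Tra2b-204 (122.28 and 124.16 TPM in replicates 2 and 1) and Tra2a-201 (74.27 and 88.61 TPM) stood closer together. A second coding model, Tra2b-201 (104.3 and 100.61 TPM), starts downstream of the exon and enters neither side of its inclusion. The longer 397-base form of the Tra2b exon, in Tra2b-209, had 0 counts in both libraries.

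The hexamer GAAGAA, the GAA-rich motif these proteins are known to bind, was searched on the transcript strand of the 13 exons, with overlapping matches counted. It occurred 4 times in the Tra2a exon, 3 times in the 276-base Tra2b exon, 4 times in its 397-base form and 1 time in the Srsf7 exon. In the other 9 exons these letters were not found. Among internal coding exons at least as long, 24.6% held the hexamer at the length of the Tra2a exon, 22.7% at that of the Tra2b exon and 33.3% at that of the Srsf7 exon. A match is a description of the letters and not of binding.

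Srsf3 and Srsf7 are close relatives whose poison exons are alike in length, 456 and 460 bases, both in intron 3. Inclusion was 16.7% in replicate 2 and 17.3% in replicate 1 for Srsf3, and 4.08% and 3.14% for Srsf7. The decay transcript Srsf3-201 had 69.65 TPM in replicate 2 and 76.1 TPM in replicate 1. Srsf7-203, its counterpart, had 14.42 TPM in replicate 2 and 10.97 TPM in replicate 1. By inclusion of the exact exon Srsf3 was higher in both libraries.

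Retained-intron models cover the same bases, and with them the values of the pair came close. Any transcript covering the exon held 24.3% of Srsf7 TPM in replicate 2 and 22.9% in replicate 1, and 21.8% and 21.9% of Srsf3 TPM. In Srsf7 most of this came from Srsf7-207 (62.36 and 68.14 TPM in replicates 2 and 1) and Srsf7-206 (41.33 and 28.3 TPM), which keep intron 3 whole. In Srsf3 it came from Srsf3-201 and from Srsf3-204, which keeps introns 3 and 4 (40.88 TPM in replicate 2 and 40.35 TPM in replicate 1). The leading coding transcripts were Srsf3-202 (341.68 and 363.46 TPM) and Srsf7-201 (242.75 and 237.53 TPM).

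Srsf4 and Srsf11 showed small decay shares spread over several exons. Srsf4 encodes the longest classical SR protein, and its intron 1 holds 4 annotated decay exons, 2 of which overlap. Its 184-base exon, shared by both decay models, was included at 7.34% in replicate 2 and 8.30% in replicate 1, and the 207-base exon with the stop at 1.60% and 3.25%. Srsf4-202, the coding transcript, had 90.43% of the gene's TPM in replicate 2 and 90.22% in replicate 1. The decay models Srsf4-204 and Srsf4-203 were each below 7 TPM in both libraries.

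In Srsf11 the 117-base exon was included at 7.72% in replicate 2 and 12.8% in replicate 1, with a wide gap between the pools, and the 109-base exon at 5.02% and 5.70%. The decay transcript with the most TPM, Srsf11-212, rests on 29.52 counts in replicate 2 and 62.36 counts in replicate 1. Srsf11 has 19 models, 11 of them retained intron, and reads are divided among them by estimate. None of these 11 keeps a whole intron of the leading coding model. The leading coding model Srsf11-202 had 69.15 TPM in replicate 2 and 56.54 TPM in replicate 1, and Srsf11-201, second by its mean, 23.79 TPM and 37.89 TPM. The first was higher and the second lower in replicate 2, with 1 library on each side and no test. The deposited intervals of each did not overlap between pools, but each describes 1 library and holds no spread between pools. For Srsf11-201 they nearly met, with an upper bound of 27.2 TPM in replicate 2 and a lower bound of 27.8 TPM in replicate 1. Another coding model, Srsf11-217, had 25.88 TPM in replicate 2 and 35.28 TPM in replicate 1. The retained-intron model Srsf11-208 had 34.71 TPM in replicate 2 and 31.05 TPM in replicate 1.

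Srsf1 and Srsf2 have decay models without a poison exon that holds a stop. The Srsf1 decay model Srsf1-204, at 39.15 TPM in replicate 2 and 35.46 TPM in replicate 1, uses only bases that coding models of the gene also contain, joined at 2 junctions that no coding model has. Its stop lies 80 bases before the last junction. In Srsf2 the decay transcript Srsf2-204 had 85.69 TPM in replicate 2 and 90.03 TPM in replicate 1. It ends at the same stop as the coding transcript Srsf2-201 (489.76 and 498.25 TPM), with its last junction 113 bases downstream. All junctions of Srsf2-204 are also in coding models, and Srsf2-201 too splices its intron 2 beyond that stop. The junction therefore does not set these 2 transcripts apart. A 104-base exon of Srsf2-202 also lies beyond that stop and was included at 0.407% in replicate 2 and 0.430% in replicate 1.

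Reads of such models overlap coding exons throughout. Noncoding models with no base outside coding exons held 24.8% of Srsf1 TPM and 14.3% of Srsf2 TPM, 0.595% in Srsf3 and 0% in the other 7 genes. The Srsf1 decay models have 2 junctions each that no coding model has, and the Srsf2 decay models have 0. As shares of estimated counts in place of TPM, decay transcripts held 3.47% in Srsf1 and 4.79% in Srsf2. The labels name no strand-specific step, and Srsf2 shares 460 exonic bases with Mettl23 (50.2 TPM in replicate 2 and 50.1 TPM in replicate 1) and 288 with Mfsd11 (38.02 and 38.6 TPM) on the opposite strand. Srsf4 shares 1532 with Gm12992 (0.72 and 1.06 TPM) and Srsf1 shares 98 with Gm11508 (0.54 and 0.85 TPM), also on the opposite strand. Reads in these stretches cannot be told apart by strand.

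Srsf5, which encodes SRSF5 (SRp40), stood apart by its leading transcript. The retained-intron model Srsf5-212, which keeps intron 5, had 171.24 TPM in replicate 2 and 158.18 TPM in replicate 1. The leading coding model Srsf5-201 had 118.93 TPM in replicate 2 and 99.52 TPM in replicate 1, followed by Srsf5-202 (79.19 and 65.65 TPM) and Srsf5-205 (50.14 and 49.13 TPM). Srsf5-212 was thus the most abundant single model in both libraries, at 37.56% and 38.68% of the gene, while the coding models together held more. It has 1229 bases outside all coding exons of the gene, and intron 5 is also kept by Srsf5-209 (5.02 and 5.13 TPM in replicates 2 and 1) and Srsf5-207 (0.39 and 1.97 TPM). The deposited interval of Srsf5-212 ran from 161 to 170 TPM in replicate 2 and from 149 to 157 TPM in replicate 1. In both libraries its TPM lay slightly above this interval. In Tra2a the retained-intron share rested almost wholly on Tra2a-203, an unspliced model of 3788 bases at 23.37 TPM in replicate 2 and 26.04 TPM in replicate 1.

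The older annotation, GENCODE M4, gave other shares for some members, from the same libraries. It has 60 models of these genes, where M21 has 84. Srsf1, Srsf2, Srsf4 and Srsf5 had almost the same shares in both releases. Srsf7 and Tra2a have 1 model each in M4, so both stood at 100% coding there. The retained-intron share of Srsf3 averaged 14.3% in M21 and 45.3% in M4. In M4 the model Srsf3-205 is 910 bases long and took 38.7% of the gene's TPM, while in M21 it is 2110 bases long and took 6.15%. Tra2b had 15.5% in decay transcripts in M21 and 9.11% in M4, and Srsf11 had 5.15% in M21 and 11.3% in M4. Srsf6 kept the highest decay share in both releases, at 35.8% in M21 and 33.7% in M4.

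**Figure D5:**
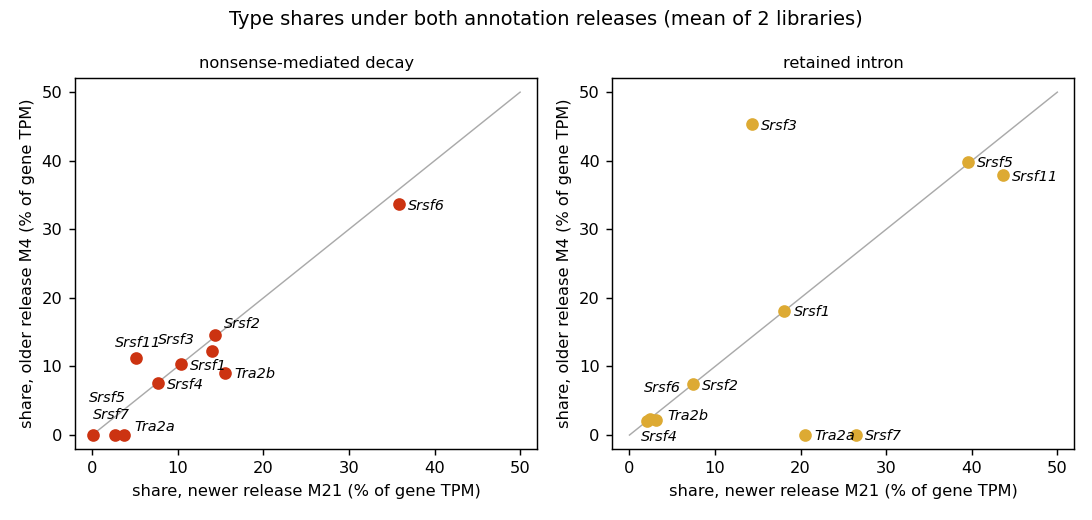
Mean share of gene TPM (%) over 2 libraries in decay transcripts (left) and retained-intron transcripts (right), under M21 (horizontal axis) and M4 (vertical axis), with a grey line where both are equal. Srsf3 lies far above the line in the right panel (14.3% in M21, 45.3% in M4), and Srsf7 and Tra2a lie at 0% in M4.

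Partners of the SR proteins were expressed throughout and differed little between the pools. All 16 other SR and SR-related genes were at 10 TPM or more, led by Srrm2 (514 ± 39.6 TPM), a spliceosomal scaffold, Rsrp1 (385 ± 25.1) and Rnps1 (265 ± 6.14), an exon junction component. Among 11 of them with a decay model 3 had 10% or more in decay transcripts, and among 12 with a retained-intron model 7 had 10% or more in those. Over all genes with such models the shares were 30.1% and 48%. Scaf11 had 69.52% of its TPM in decay transcripts in replicate 2 and 70.53% in replicate 1. Rsrp1 had 68.37% in retained-intron transcripts in replicate 2 and 70.72% in replicate 1. Both shares exceed that of any of the 10 members in the same type.

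The kinases that phosphorylate SR proteins, with the import receptor gene Tnpo3, were all 10 at 1 TPM or more. Clk1 led at 134 ± 6.85 TPM, before Clk4 (107 ± 10.7) and Srpk1 (79.9 ± 5.88). Clk1 had 44.3% of its TPM in retained-intron transcripts in replicate 2 and 53.01% in replicate 1, and Clk4 had 45.96% and 44.21%. Srpk3, a kinase known from muscle, had 4.12 TPM in replicate 2 and 5.45 TPM in replicate 1. Its log2 ratio was -0.66, and it was the only gene of the 6 lists of partner genes past a log2 ratio of 0.32. The muscle markers were lower in replicate 2 as well, with log2 ratios of -0.36 for Myog, -0.60 for Actc1 and -0.68 for Ttn, and their part in the Srpk3 value was not tested.

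The decay machinery was present at lower levels. All 14 decay factors were at 1 TPM or more, with a median of 21.9 TPM, against 338 TPM for the 10 SR and Tra2 genes, and Pnrc2 (117 ± 6.12 TPM) and Smg5 (62.4 ± 0.834) were the highest. The 5 exon junction complex genes had a median of 115 TPM, led by Eif4a3 at 249 ± 5.69 TPM. None of the decay factor and exon junction genes passed a log2 ratio of 0.32 between the pools. No decay factor had 10% of its TPM in decay transcripts, among 3 with such a model.

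Some other splicing regulators, named here by their high noncoding share, had a larger share of 1 type than any of the 10 members. Of 12 hnRNP and related genes with a decay model 4 had 10% or more in decay transcripts, as did 3 of 7 spliceosome genes. Of the 10 members 5 did, and of all genes with such a model 30.1%. Hnrnpu, a nuclear scaffold protein gene, had 76.02% in replicate 2 and 76.08% in replicate 1, and Tardbp, which encodes TDP-43, had 44.47% and 45.35%. Tia1 had 68.05% in retained-intron transcripts in replicate 2 and 69.72% in replicate 1. Sf3b1, a U2 snRNP subunit gene, had 22.01% in decay transcripts in replicate 2 and 25.5% in replicate 1, with 42.82% and 45.11% in retained-intron transcripts. The 3 types of the 10 members, taken as medians (71.2% coding, 9.01% decay, 16.2% retained intron), were matched most closely among 2362 genes by Ankhd1, Lpcat1, Stk36, Enkd1 and Mvb12a, at distances of 1.48 to 3.01 percentage points over the 3 mean shares of the 2 libraries.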

How the data were processed

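RNA of 2 pooled neural tube samples was quantified by the authors. Per the deposited notes, reads were quantified on assembly mm10 against GENCODE releases M21 and M4; aligner and quantifier: not given in the sources used here. The headers of the deposited tables name, for each gene or transcript, an estimated count (reads shared among matching features by a model), a TPM, a posterior standard deviation and mean, the bounds of a TPM credibility interval (read here as signal values; its level is not stated), and, for transcripts, the percent of the gene's TPM, which the authors computed. Short models that overlap longer ones carry uncertain shares for this reason.

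The members and gene lists were chosen with earlier results of these data known. Percent values were summed by M21 transcript type; M4 transcripts took the M21 type of the same ID (60 of 60 matched). All 55536 gene IDs were named from M21. Levels are means ± SD over 2 libraries, and a gene counted as expressed at 1 TPM in both. The labels number the pools as biological replicates, and the spread between them is of these 2 pools only. For the ratio between libraries, estimated counts were rounded, genes with 10 counts in either library kept, library sizes scaled by TMM (edgeR 4.0.16, R 4.3.3) and a prior count of 2 added; this step was tested on simulated data. Rows naming no gene or spike-in held at most 0.000112% of counts and were left out. With 1 group no p-value was computed. Background shares cover protein-coding genes at 10 TPM in both libraries with a model of that type.

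Named are the 10 members; in each of 6 lists the 3 genes highest in TPM, the 3 highest in summed decay and retained-intron share and any past a log2 ratio of 0.32 between libraries; for each member the 3 leading transcripts and the leader of each type; and the 5 genes nearest to the members' median type shares. Some genes under this rule are left out, and Srsf4-203, Srsf11-206, Srsf2-202 and Tra2b-209 are named for their exons. Alternatives were M4, posterior means, shares of estimated counts, transcripts whose interval reaches 0 left out, other TPM minima, DESeq2 1.42.0 size factors, spike-in scaling, no count filter, other folds and single libraries. Python 3.11.15, numpy 2.4.6, pandas 2.3.3 and matplotlib 3.10.9 were used.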

Additional observations from a re-analysis of the deposited data

How the results depend on the processing

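No paired analysis was possible because there is 1 group. With M4, the median level of the 10 genes was 325 TPM (338 in M21) and the median decay share 9.72% (9.01%). The M4 median retained-intron share was 4.89% (16.2%) and the M4 median coding share 74.8% (71.2%). Srsf7 and Tra2a have no decay or retained-intron model in M4, so their shares of both types are 0% there by construction. What else moved these medians was not tested. With posterior means the median level was 328 TPM. As shares of estimated counts, which weigh long transcripts more, the medians were 3.48% decay, 12.7% retained intron and 75.2% coding, and 3 genes rather than 5 had 10% or more in decay transcripts. For retained introns 6 genes did, against 4 in M4 and 5 by counts, and the gene with the highest share was Srsf11 by TPM, Srsf3 in M4 (45.3%) and Srsf5 by counts (56.5%). Single genes moved more: decay was 20.5% of counts against 35.8% of TPM in Srsf6, 3.47% against 10.4% in Srsf1 and 4.79% against 14.3% in Srsf2, both then under 10%, and retained introns were 56.5% against 39.6% in Srsf5, in Tra2a 35.6% against 20.5% and in Srsf1 4.90% against 18.1%.

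Over all genes, the percent with 10% or more in decay transcripts was 32.5 at a minimum of 1 TPM, 27.4 at 50 TPM and between 30.8 and 30.9 in single libraries (30.1 in both); for retained introns it was 49.9, 40.7 and between 47.4 and 48.7. Single libraries gave a median level between 332 and 345 TPM, a median decay share between 8.67% and 9.36%, retained intron between 16.1% and 16.4% and coding between 70.7% and 71.4%, with 5 and 6 genes at 10% or more in either. The count of members past the fold moved to 1 at 1.1-fold and stayed at 0 at 1.5-fold and under the 5 other settings. The median library changes of the decay and retained-intron shares kept their sign under 4 alternatives chosen after seeing the data; in M4 the changes of Srsf7 and Tra2a were 0. Depth limits models with few counts, as in Srsf5 and Srsf11 decay transcripts.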
